A study of Mus musculus with 2 samples.

Results

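The collagen chains are the genes whose symbol has the form Col, a type number, a and a chain number, and 44 of the 24421 genes in the count tables met this pattern. The library labelled LKO came from liver of male C57BL/6 mice of genotype RORalpha f/f:Alb-Cre, in which a Cre recombinase driven by the albumin promoter was to delete the floxed part of Rora in hepatocytes. The control library came from liver of RORalpha f/f mice, which carry the same floxed alleles. Mice of both genotypes were 6 weeks old when a high-fat diet began and ate it for 12 weeks. By its title the series looked for genes that depend on RORα, a nuclear receptor, as steatohepatitis progresses. Each genotype had 1 library, and whether it held RNA of 1 animal or of a pool stays unknown (not given in the sources used here), so no difference has a replicate check and no test was made.

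Collagens are triple helices of 3 polypeptide chains, each built on a repeat with glycine at every turn, and every gene here encodes such a chain. Fibrillar collagens form the banded fibres that give tissue its tensile strength. Type IV forms the sheet of basement membranes, type VI forms beaded filaments around cells, and the FACIT collagens sit on the surface of fibres. In liver, stellate cells and portal fibroblasts are the known main makers of fibrillar collagen, and its build-up is the hallmark of fibrosis. Collagen XVIII, encoded by Col18a1, differs in that hepatocytes themselves are known to express it.

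Read counts summed to 131843686 in the library labelled LKO and 128201591 in the control library. Levels are given as CPM, counts divided by a library size that TMM scaling (the trimmed mean of log ratios) had adjusted, because the Mup genes of urinary proteins held 9.08% of counts in the library labelled LKO and 23.0% in the control library. Scaling by total count alone would raise every log2 ratio by 0.42. Rora had 3677 counts (24.1 CPM) in the library labelled LKO and 3701 counts (33.4 CPM) in the control library, 1.38-fold lower with an interval of 1.32 to 1.45, and as its total was not lost the genotype is given throughout as a label. Each interval is a 95% exact interval for counting error alone.

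Collagen transcripts were a small share of both libraries, and most of them were Col18a1. The 44 genes held 61672 counts, 0.0468% of the total (95% Clopper-Pearson interval 0.0464 to 0.0471), in the library labelled LKO and 28250 counts, 0.0220% (0.0218 to 0.0223), in the control library. Col18a1 had 45237 of these counts in the library labelled LKO and 21982 in the control library. The percentages are of totals without TMM scaling. In TMM-scaled CPM the 44 genes summed to 404 in the library labelled LKO and 255 in the control library, 1.59-fold higher. Of the 44 genes, 16 were measured, meaning a mean of at least 1 CPM and a summed count of at least 20, another 15 had a summed count of at least 20 without reaching that level, and 13 had fewer, of which 8 were at 0 in both libraries.

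Among the 16 measured chains, 8 were higher by 2-fold or more in the library labelled LKO with an interval that excluded 1, and 1 was lower by as much. Over all 11137 measured genes the shares past these limits were 3.83% higher and 2.62% lower. The median log2 ratio of the 16 chains was 1.03, against −0.0031 over all measured genes, and 14 of the 16 ratios were above 1. The single chain that passed the filter through 1 library only was Col5a2, the lower one, which reached 1 CPM in the control library alone, so its direction was tied to the filter. By mean level, Col6a2 lay nearest inside the filter, at 1.82 CPM in the library labelled LKO and 1.43 CPM in the control library, and Col12a1 nearest outside it, at 0.984 CPM in the library labelled LKO and 0.505 CPM in the control library. With the dependence of log2 ratios on transcript length and GC content taken out, 5 chains remained at least 2-fold higher, and Col4a1, Col4a2 and Col6a3 dropped below 2-fold.

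**Figure D1:**
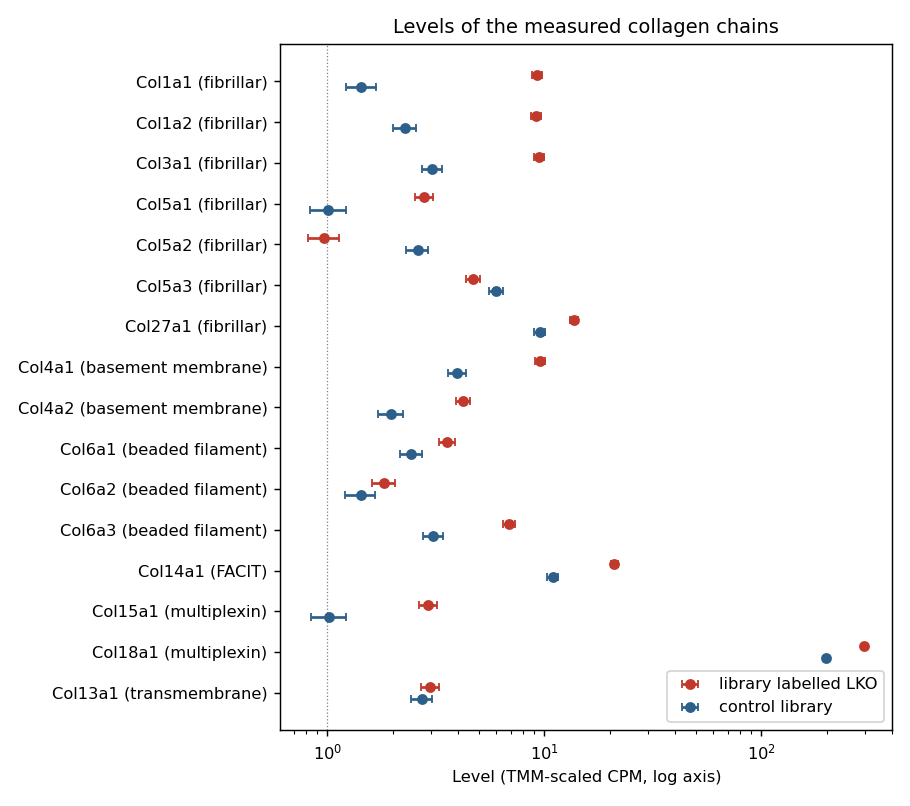
Level of each of the 16 measured collagen chains, in TMM-scaled CPM on a log axis, in the library labelled LKO (red) and the control library (blue). Bars are 95% exact Poisson intervals for counting error and the dotted line marks 1 CPM. Col18a1 stands apart at 297 and 198 CPM, and red lies right of blue for all chains but Col5a2 and Col5a3.

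Fibrillar collagens were higher for the chains of types I and III and for Col5a1, and lower for Col5a2. Of 11 fibrillar genes 7 were measured, 4 of them at least 2-fold higher and 1 at least 2-fold lower. Col1a1 and Col1a2 encode the chains of type I collagen, the main collagen of scar tissue. Col1a1 (chromosome 11, 94936224 to 94953042, plus strand, mm10) had 1418 counts (9.30 CPM) in the library labelled LKO and 159 counts (1.43 CPM) in the control library, 6.48-fold higher with an interval of 5.50 to 7.69. This was the largest ratio among measured collagens, at rank 45 of 11137 measured genes from the highest. Col1a2 (chromosome 6, 4504814 to 4541544, plus strand) stood at 9.16 and 2.27 CPM in the library labelled LKO and the control library, from 1396 and 252 counts, 4.03-fold higher (interval 3.52 to 4.62, rank 104). Col3a1 (chromosome 1, 45311538 to 45349706, plus strand) encodes the single chain of type III collagen, which forms the reticular fibres of the normal liver lobule. It had 1438 counts in the library labelled LKO and 338 in the control library, or 9.43 and 3.05 CPM, 3.09-fold higher (interval 2.75 to 3.49). Per kb of transcript, Col1a1, Col1a2 and Col3a1 had levels of 1.57, 1.71 and 1.69 CPM in the library labelled LKO and 0.242, 0.425 and 0.548 CPM in the control library, so they lay closer together in the library labelled LKO.

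The 250 bases before the RefSeq start (GRCm38.p6) are shown for the 3 chains of this set with the largest ratios among those that have an entry, Col1a2 at chr6:4505368-4505617, Col3a1 at chr1:45311288-45311537 and Col5a1 at chr2:27886175-27886424, all on the plus strand, to let their promoters be compared. The Col1a2 window lies inside the gene by its GENCODE M21 coordinates, which begin at 4504814. Those of Col3a1 and Col5a1 end directly before the GENCODE start. Capitals mark matches on either strand to CCAAT (the CCAAT box), to TATAAA, which is a common form of the TATA box, and to GGGCGG, which is known as the GC box.
Col1a2: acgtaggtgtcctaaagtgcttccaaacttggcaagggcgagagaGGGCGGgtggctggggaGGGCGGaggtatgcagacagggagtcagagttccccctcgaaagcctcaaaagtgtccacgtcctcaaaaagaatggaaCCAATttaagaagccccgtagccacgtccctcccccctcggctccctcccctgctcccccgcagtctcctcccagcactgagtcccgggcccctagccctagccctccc
Col3a1: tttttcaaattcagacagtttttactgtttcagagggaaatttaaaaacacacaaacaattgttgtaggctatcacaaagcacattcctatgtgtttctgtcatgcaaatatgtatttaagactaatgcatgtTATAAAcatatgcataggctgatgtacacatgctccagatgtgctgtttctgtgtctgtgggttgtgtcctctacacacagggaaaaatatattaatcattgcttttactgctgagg
Col5a1: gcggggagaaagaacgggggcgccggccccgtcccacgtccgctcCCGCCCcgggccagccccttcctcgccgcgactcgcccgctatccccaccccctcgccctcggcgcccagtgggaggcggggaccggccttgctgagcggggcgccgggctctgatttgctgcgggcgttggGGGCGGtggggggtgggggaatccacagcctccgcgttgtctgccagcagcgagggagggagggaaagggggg
Although Col1a2, Col3a1 and Col5a1 were all higher, none of the marked motifs was common to the 3 windows. CAGACA, which was searched but not marked, was in all 3. Col1a2 held 1 CCAAT and 2 GGGCGG matches, Col5a1 held 2 GGGCGG matches, and Col3a1 held 1 TATAAA match, 117 to 112 bases before the start. The Col3a1 window had 35.2% GC, against 62.0% for Col1a2 and 76.4% for Col5a1.

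In the RefSeq table, 35 of the 44 collagens had a window, and 13 of the 16 measured ones. Col1a1, Col5a2 and Col14a1 were not among them. GGGCGG was in 21 of 35 collagens (60.0%), against 32.7% of all 32851 windows of the same length, where a collagen with several windows was counted once if any held the motif. CCAAT was in 13 of 35 (37.1%) against 33.8% of all windows, and TATAAA in 5 of 35 (14.3%) against 12.4%. AGGTCA, the half-site that RORα is known to bind, was in 8 of 35 (22.9%) against 14.02% of all windows, and in 0 of the 13 measured chains with a window. CAGACA, which contains the core that SMAD proteins of the TGF-β pathway are known to bind, was in 9 of 35 (25.7%) against 17.1%, and in 3 of the 7 higher measured chains with a window (Col1a2, Col3a1 and Col5a1) and 1 of the 6 others (Col18a1). Each motif was searched as spelled on both strands, and these shares only describe which letters the windows held.

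Type V collagen, which is built into type I fibres and limits their width, had chains with opposite directions. Col5a1 had 426 counts (2.79 CPM) in the library labelled LKO and 112 counts (1.01 CPM) in the control library, 2.77-fold higher (interval 2.24 to 3.44). Col5a2 (chromosome 1, 45374321 to 45503282, minus strand) was lower, with 147 counts (0.964 CPM) in the library labelled LKO and 289 counts (2.61 CPM) in the control library, 2.70-fold lower (interval 2.21 to 3.32). Col5a3, another chain of this type, had 714 and 666 counts, or 4.68 CPM in the library labelled LKO and 6.01 CPM in the control library, a log2 ratio of −0.36 that became 0.06 with total-count scaling. Col5a2 is the neighbour of Col3a1, 24615 bases from it and pointing towards it, so that the chains on each side of this gap had opposite directions. Col27a1, a fibrillar collagen known from cartilage, had 2090 counts (13.7 CPM) in the library labelled LKO and 1054 (9.51 CPM) in the control library, 1.44-fold higher (interval 1.34 to 1.55). Of the others, Col11a2 and Col24a1 had 14 to 18 counts in each library with intervals that included 1, and Col2a1 and Col11a1, chains of cartilage fibres, were at 0 in both.

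**Figure D2:**
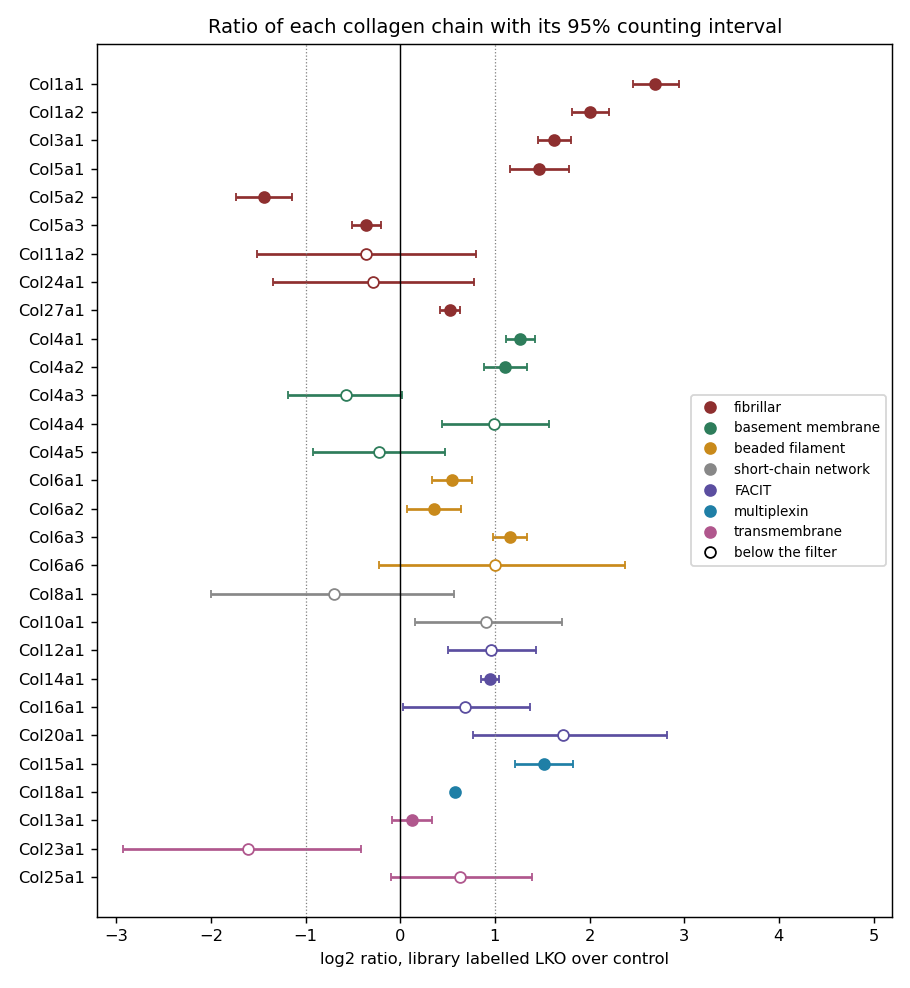
Log2 ratio, library labelled LKO over control, of the 29 collagen chains with a summed count of at least 20 and a control count above 0, coloured by class. Bars are 95% exact intervals for counting error, dotted lines mark 2-fold, and open points are chains below the filter on level. Col1a1 lies farthest right among filled points and Col5a2 is the filled point left of the lower 2-fold line.

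Basement membrane collagen was higher in its ubiquitous pair of chains. Col4a1 and Col4a2 encode the type IV network found under endothelium and epithelium and, in a sparse form, along the sinusoid. Col4a1 had 1460 counts (9.57 CPM) in the library labelled LKO and 440 counts (3.97 CPM) in the control library, 2.41-fold higher (interval 2.17 to 2.69). Col4a2 had 645 counts (4.23 CPM) in the library labelled LKO and 217 counts (1.96 CPM) in the control library, 2.16-fold higher (interval 1.85 to 2.53). Both genes start back to back on chromosome 8, Col4a1 on the minus strand from 11198423 to 11312826 and Col4a2 on the plus strand from 11312805 to 11449287, and the annotated genes overlap by 22 bases. The restricted chains, known best from the kidney glomerulus, had few counts. Col4a3 had 47 and 51 counts in the library labelled LKO and the control library, Col4a4 had 104 and 38, Col4a5 had 40 and 34, and Col4a6 had 4 and 0. Of these only Col4a4 had an interval that excluded 1, at 1.99-fold higher (1.36 to 2.97), while Col4a3, which starts 72 bases from it on the other strand, had a ratio of 0.670 (0.441 to 1.02).

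Beaded filament collagen, type VI, was higher mainly in its largest chain. Col6a3 had 1047 counts (6.87 CPM) in the library labelled LKO and 340 counts (3.07 CPM) in the control library, 2.24-fold higher (interval 1.98 to 2.54). Its partners Col6a1 and Col6a2, which stand side by side on chromosome 10, differed less. Col6a1 had 542 and 270 counts in the library labelled LKO and the control library, 1.46-fold higher (interval 1.26 to 1.70), and Col6a2 had 278 and 158, 1.28-fold higher (interval 1.05 to 1.56). The later-described chains were rare. Col6a5 had 24 counts in the library labelled LKO and 0 in the control library. It was 5.82-fold higher with the control library set at a floor of 3 counts, and its lower interval limit was 4.38. Col6a6 had 22 and 8 counts with an interval from 0.857 to 5.19, and Col6a4 had 3 and 0.

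The remaining classes were led by Col18a1 and Col14a1. Col18a1 (chromosome 10, 77052178 to 77166548, minus strand), whose protein is the source of the fragment endostatin, stood at 297 CPM in the library labelled LKO and 198 CPM in the control library, 1.496-fold higher (interval 1.47 to 1.52), just under the 1.5-fold limit that 9 of 16 measured collagens and 10.5% of all measured genes passed upwards. Its log2 ratio of 0.58 was 1.0 with total-count scaling and 0.27 with the dependence on length and GC content taken out. Slc19a1 overlaps it on the opposite strand over 8825 bases, with 1550 counts in the library labelled LKO and 583 in the control library. Col15a1, the other multiplexin, a collagen of basement membranes, had 445 counts (2.92 CPM) in the library labelled LKO and 113 counts (1.02 CPM) in the control library, 2.86-fold higher (interval 2.32 to 3.55). Col14a1, a FACIT collagen on the surface of type I fibres, had 3210 counts (21.1 CPM) in the library labelled LKO and 1212 counts (10.9 CPM) in the control library, 1.93-fold higher (interval 1.80 to 2.06). Col13a1, a transmembrane collagen of cell adhesions, was nearly equal, with 453 and 302 counts, 2.97 CPM in the library labelled LKO and 2.72 CPM in the control library (ratio 1.09, interval 0.941 to 1.27).

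Several rare chains had more counts in the library labelled LKO. Of these, Col7a1 and Col20a1 reached a summed count of 20 through that library alone, so their direction was tied to the summed-count filter. Col7a1, which anchors the epidermis to the dermis, had 40 counts in the library labelled LKO and 0 in the control library. It was 9.69-fold higher with the control library set at the floor of 3 counts, and its lower interval limit was 7.52. Col12a1, a FACIT collagen, had 150 and 56 counts in the library labelled LKO and the control library, 1.95-fold higher (interval 1.42 to 2.70). Col20a1 had 50 and 11 (3.30-fold, 1.70 to 7.04), Col10a1, known from growth plate cartilage, 54 and 21 (1.87-fold, 1.11 to 3.26), and Col16a1 64 and 29 (1.60-fold, 1.02 to 2.58). Col10a1 lies wholly inside Nt5dc1 on the other strand, which had 1109 counts in the library labelled LKO and 652 in the control library, and reads of the pair cannot be told apart without strand. In the other direction, Col23a1 had 9 counts in the library labelled LKO and 20 in the control library, 3.06-fold lower (interval 1.33 to 7.62). It reached a summed count of 20 through the control library alone, so its direction was tied to that filter too. Col25a1, with 51 and 24 counts, and Col8a1, with 11 and 13, had intervals that included 1. Col17a1 had 8 and 0 counts, Col19a1 10 and 9, and Col9a3 2 in each library. Col8a2, Col9a1, Col9a2, Col22a1, Col26a1 and Col28a1 were at 0 in both, like Col2a1 and Col11a1, where a count of 0 allows up to 3 counts, 0.0197 CPM in the library labelled LKO and 0.0271 CPM in the control library.

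**Figure D3:**
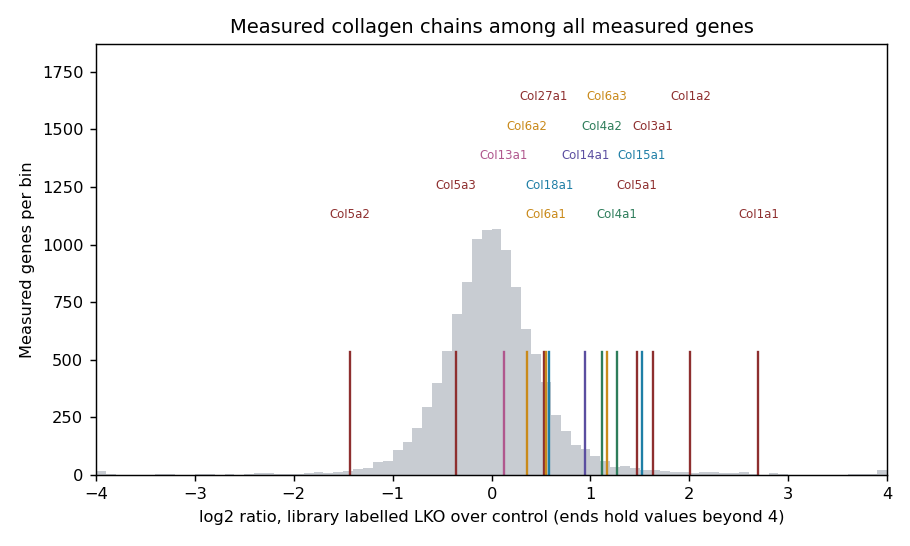
Log2 ratios, library labelled LKO over control, of all measured genes (grey, genes per bin of width 0.1) with the 16 measured collagen chains as coloured lines. The height of a line carries no value. The chains run from −1.44 for Col5a2 to 2.70 for Col1a1, and 14 of 16 lie right of 0.

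Divided by transcript length, the collagen pool remained dominated by Col18a1, at 53.0 CPM per kb in the library labelled LKO and 35.4 in the control library, or 75.2% and 79.3% of the sum over the 44 genes. Without Col18a1 the sum was 17.5 CPM per kb in the library labelled LKO and 9.27 in the control library. Fibrillar chains made up 46.0% of that remainder in the library labelled LKO and 43.2% in the control library, basement membrane chains 12.9% and 11.2%, beaded filament chains 11.2% and 12.9%, FACIT chains 20.1% and 19.7%, the multiplexin Col15a1 3.23% and 2.13%, and transmembrane chains 5.77% and 9.99%. Within the fibrillar class, shares of single chains differed more than the share of the class. Col1a1, Col1a2 and Col3a1 were 8.96%, 9.79% and 9.69% of the remainder in the library labelled LKO, against 2.61%, 4.59% and 5.91% in the control library. Col27a1, Col5a3 and Col5a2 were 10.3%, 4.37% and 0.832% in the library labelled LKO, against 13.5%, 10.6% and 4.25% in the control library. By level per length, Col1a1 ranked 6 of the 44 chains in the library labelled LKO and 14 in the control library.

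**Figure D4:**
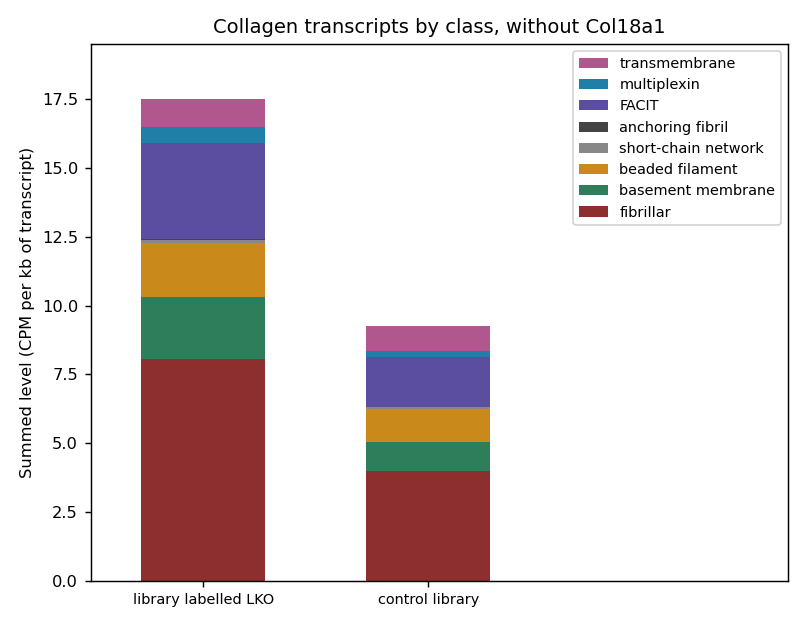
Summed level per transcript length (CPM per kb) of the collagen classes in the library labelled LKO (left) and the control library (right), without Col18a1. The stacks reach 17.5 and 9.27 CPM per kb, with fibrillar chains as the largest class in both.

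Ratios between chains of 1 library do not depend on the scaling between libraries. Type I collagen is mostly a trimer with more Col1a1 than Col1a2 chains. Col1a1 over Col1a2, per length, was 0.916 (interval 0.850 to 0.987) in the library labelled LKO and 0.569 (0.464 to 0.697) in the control library, a 1.61-fold change (1.296 to 2.003). Col3a1 over Col1a1 was 1.08 (1.004 to 1.16) in the library labelled LKO and 2.27 (1.87 to 2.75) in the control library. For type V, Col5a1 over Col5a2 was 2.28 (1.89 to 2.77) in the library labelled LKO and 0.305 (0.243 to 0.381) in the control library, a 7.48-fold change (5.55 to 10.1) that turned the order of this pair round. Col5a1 over Col5a3 was 0.434 in the library labelled LKO and 0.122 in the control library, below 1 in both. Col5a2 passed the filter through the control library alone, so the direction of changes in ratios over it was tied to the filter. Col3a1 over its neighbour Col5a2 was 11.6 (9.82 to 13.9) in the library labelled LKO and 1.39 (1.19 to 1.64) in the control library. By contrast, Col4a1 over Col4a2 was 2.21 (2.01 to 2.43) in the library labelled LKO and 1.98 (1.68 to 2.34) in the control library, with an interval of the change from 0.921 to 1.35. Col6a1 over Col6a2 was likewise close, at 2.34 (2.02 to 2.71) and 2.05 (1.68 to 2.51) in the library labelled LKO and the control library, whereas Col6a3 over Col6a1 was 0.784 (0.706 to 0.871) and 0.511 (0.434 to 0.602). These intervals cover counting error, not the spread between animals.

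**Figure D5:**
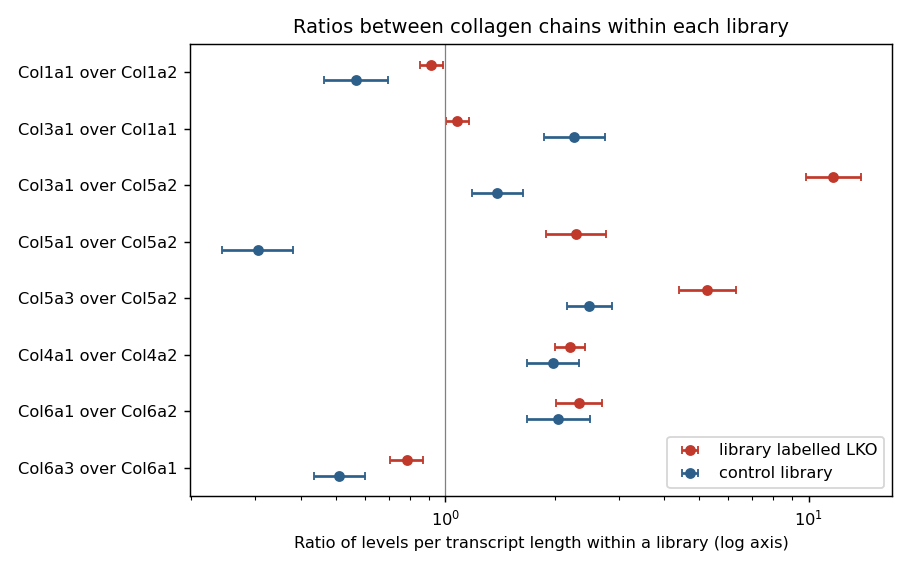
Ratio of the level per transcript length of 1 chain to another within the library labelled LKO (red) and within the control library (blue), on a log axis with 95% exact intervals for counting error. The Col5a1 over Col5a2 ratio lies at 2.28 in red and 0.305 in blue, on opposite sides of 1, and the Col4a1 over Col4a2 intervals overlap.

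Genes that hydroxylate, fold, export, trim and cross-link collagen seldom passed the 2-fold limit. Of 36 such genes 22 were measured, 1 of them higher by 2-fold or more and 1 lower by as much, near the 3.83% and 2.62% of all measured genes, and their median log2 ratio was 0.20. At 1.5-fold, 4 were higher and 2 lower, beside 10.5% and 9.76% of all measured genes, so the lower count was near that of all genes. Fkbp10, an endoplasmic reticulum chaperone of type I procollagen, had 254 counts (1.67 CPM) in the library labelled LKO and 38 counts (0.343 CPM) in the control library, 4.86-fold higher (interval 3.45 to 7.03), and reached 1 CPM in the library labelled LKO alone. Serpinh1, which encodes the collagen chaperone HSP47, stood at 20.8 and 13.5 CPM in the library labelled LKO and the control library, 1.53-fold higher (interval 1.44 to 1.63). The lysyl oxidase-like genes Loxl2 and Loxl3, which cross-link collagen, were 1.86-fold (1.55 to 2.24) and 1.66-fold (1.305 to 2.11) higher, Loxl3 again by passing through the library labelled LKO alone. Lox and Plod2, the lysyl hydroxylase of collagen telopeptides, were below the filter, with 88 and 199 counts in the library labelled LKO and 17 and 47 in the control library. Also below the filter, Loxl4, another cross-linking gene, had 88 counts in the library labelled LKO and 152 in the control library, and P3h2, a prolyl 3-hydroxylase gene, had 57 and 97, both with intervals below 1. On the lower side, P4ha1, a catalytic subunit of prolyl 4-hydroxylase, which stabilises the triple helix, had 5.86 CPM in the library labelled LKO and 13.1 CPM in the control library, 2.23-fold lower (interval 2.05 to 2.43). The peptidyl-prolyl isomerase gene Ppib was 1.73-fold lower (1.68 to 1.78), at 46.4 and 80.2 CPM. P4hb and Bmp1, which besides collagen serve many other secreted proteins, had ratios of 1.07 and 1.03.

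Matrix proteins that bind collagens were mostly higher by less than 2-fold. Of 31 genes 20 were measured, 3 of them higher by 2-fold or more and 1 lower by as much, beside 3.83% and 2.62% of all measured genes, so the lower count was near that of all genes. Their median log2 ratio was 0.43. Thbs1, an adhesive glycoprotein, had 256 counts in the library labelled LKO and 48 in the control library, 3.88-fold higher (interval 2.84 to 5.39) after passing the filter through the library labelled LKO alone. Tnxb, which spaces collagen fibres, was 2.64-fold higher (2.32 to 3.02). Laminin chains of the basement membrane differed in direction, with Lamb3 2.87-fold higher (2.53 to 3.27) and Lama3 5.29-fold lower (4.45 to 6.32). Fn1 and Dcn, a fibronectin gene of hepatocytes and a proteoglycan gene of stellate cells, were 1.27-fold and 1.33-fold higher. Among 11 collagen receptor and uptake genes, 6 were measured and 0 reached 2-fold, with ratios from 0.716 for Lair1 to 1.54 for Ddr2, a receptor tyrosine kinase for fibrillar collagen.

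Marker lists of the cells known to make collagen had sums that differed by less than 1.5-fold, with single genes in both directions. Of 12 stellate cell markers 11 were measured, of which 0 were higher by 2-fold or more, beside 3.83% of all measured genes. The median log2 ratio was 0.40, and the list summed to 357 CPM in the library labelled LKO and 282 CPM in the control library with no marker at 0. Ecm1, an extracellular matrix protein gene, made up most of that sum, at 269.9 CPM in the library labelled LKO and 189.1 CPM in the control library, and the other 11 markers summed to 87.0 CPM in the library labelled LKO and 93.0 CPM in the control library, so the direction of the sum rested on Ecm1. Of the 11 measured markers, 8 had a ratio above 1. Lrat, which stores retinoid in these cells, had 793 and 652 counts, a log2 ratio of −0.18. Pdgfrb, a growth factor receptor of these cells, was 1.69-fold higher (interval 1.53 to 1.86). Of 7 myofibroblast markers 4 were measured, summing over the list to 30.4 and 24.8 CPM in the library labelled LKO and the control library. Timp1, an inhibitor of matrix proteases, was 5.55-fold higher (4.07 to 7.72), reaching 1 CPM in the library labelled LKO alone, while Acta2, the smooth muscle actin of contractile cells, had 411 and 330 counts and an interval that included 1 (0.781 to 1.05). Portal fibroblast markers summed to 9.06 CPM in the library labelled LKO and 7.72 CPM in the control library, with 4 of 9 measured, Entpd2 2.57-fold higher and at 1 CPM in the library labelled LKO alone, and Pi16 at 0 in the library labelled LKO.

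Markers of other tissues and cell types ranged widely in level. Those of cartilage and bone summed to 0.0066 CPM in the library labelled LKO and 0 in the control library, those of skeletal muscle to 0.197 and 0.108 CPM, and those of mesothelium to 0.846 and 1.26 CPM, with Msln and Wt1 at 0 in the control library. Of adipocyte markers, Plin1, Lep and Retn were at 0 in both libraries and Adipoq in the control library, while Cfd stood at 21.5 and 12.0 CPM. Vascular smooth muscle markers summed to 20.4 CPM in the library labelled LKO and 16.4 CPM in the control library, and without Smtn to 1.29 and 2.38 CPM, with Myh11 at 153 and 234 counts and Myocd at 0 in the control library. Endothelial markers, of cells that make type IV collagen, were close, at 123 and 131 CPM for the sinusoidal list (73.8 and 68.6 CPM without Fcgr2b) and 115 and 102 CPM for the other. Of these markers 0 of 10 were at least 2-fold different, beside 3.83% higher and 2.62% lower of all measured genes. The Kupffer cell list summed to 39.1 CPM in the library labelled LKO and 72.3 CPM in the control library. Of its markers 5 of 5 were lower by 1.5-fold or more, beside 9.76% of all measured genes. The cholangiocyte list stood at 44.4 and 56.5 CPM. Hepatocyte markers were the most abundant list, with Alb at 91007 CPM in the library labelled LKO and 117952 CPM in the control library. Of these markers 5 of 5 had an interval below 1, beside 4246 of 11137 measured genes. Of the 5, 2 were lower by 1.5-fold or more, beside 9.76% of all measured genes. In bulk tissue, more cells of a type and more RNA per cell cannot be told apart, and the part of any of these cell types in the collagen ratios was not tested.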

How the data were processed

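Read counts per gene symbol, deposited by the authors as 1 table per library with no normalization, were used for 1 library of each genotype. Per the submitters' processing notes, TopHat, edgeR and build mm10 were used, without roles or versions. The counter, its annotation, its use of strand and its handling of multiply aligned reads stay unknown (not given in the sources used here), so overlapping or antisense genes cannot be separated. None of the 31 collagens with a summed count of at least 20 had a neighbour within 250 kb whose counts matched within 5% in both libraries.

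TMM scaling was computed with edgeR 4.0.16 under R 4.3.3. Ratios are CPM of the library labelled LKO over control, with 95% Clopper-Pearson intervals conditional on the summed count (scipy 1.17.1). Whether PCR copies of 1 molecule were removed stays unknown, and copies counted apart would leave these intervals too narrow. The intervals and the floor of 3 counts describe counting error alone. Levels per length and GC content use the longest GENCODE M21 transcript (GRCm38), which also gave coordinates for all 44 collagens. Promoter windows are from RefSeq. The procedure was tested on simulated counts. Members and lists were chosen with earlier results of these data known. Any collagen with a summed count of at least 20 could be named. Of the other lists, called members, the 4 highest, 4 lowest and 3 most abundant could be named, and Lox, Plod2, Loxl4, P3h2 and the single markers were chosen after their values were seen. The value of 1 stellate cell marker is not reported here.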

Additional observations from a re-analysis of the deposited data

How the results depend on the processing

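No paired analysis was possible because each genotype has 1 library, and for the same reason no library could be left out. Of the 16 measured collagens, 14 kept the sign of their log2 ratio under total count, median of ratios (DESeq2 1.42.0), upper quartile and top-20-free totals, an added count of 0.5 and removal of the length and GC trend. The exceptions were Col5a3 (−0.70 to 0.06) and Col13a1 (−0.08 to 0.54). The count of chains at least 2-fold higher was 8 of 16. Of 16 it was 10 with total-count scaling, 9 without the 20 most abundant genes, 9 at 1.5-fold, 3 at a 3-fold limit and 5 with the trend removed. It was 11 of 31 with the summed-count filter and 4 of 8 at a mean of at least 5 CPM. The chains added by the summed-count filter were Col6a5, Col7a1 and Col20a1, whose direction was tied to it. The share of all genes past the limit is given here for the main setting and 1.5-fold only. The count at least 2-fold lower was 1 of 16, against 2 of 31 with the summed count as the only filter. It was 0 of 8 at 5 CPM, 0 of 15 at 1 CPM in both libraries and 0 of 16 at 3-fold. The median log2 ratio of 1.03 was 1.45 with total-count scaling, 1.14 with totals without the 20 most abundant genes, 0.90 with the summed-count filter and 0.81 with the trend removed. In the biosynthesis list, the count higher was 1 of 22, against 4 with total-count scaling, 2 without the 20 most abundant genes and 4 at 1.5-fold. It was 3 of 33 with the summed-count filter, 0 of 15 at 5 CPM and 0 of 20 at 1 CPM in both libraries. The count lower in this list was 1 of 22, against 0 with total-count scaling and at 3-fold, and 2 at 1.5-fold. With the summed-count filter it was 3 of 33. Filters and limits changed the counts through the genes they admit. A change of scaling moved every log2 ratio by the same amount, 0.42 with total count and 0.11 without the 20 most abundant genes. The median over all measured genes was then 0.42 and 0.11. For the trend the cause was not tested. Intervals from counts divided by 4 changed no collagen count. Depth limits chains under about 20 summed counts, for which no ratio was read.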
